A study of Mus musculus with 4 samples.

Results

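The heat shock proteins and chaperones Cryab, Hspb1, Hsph1, Hspa8, Hspa1b, Hsp90aa1, Dnajb1, Hspd1, Hspe1 and Hspa5 were read in 4 mouse cerebellar tumors by every probe set that the platform annotation gives to a single gene symbol. This rule gave 26 probe sets for 10 genes, out of 24679 such probe sets for 13320 genes. A probe set is the group of short oligonucleotides that reads a transcript on the Affymetrix array, and its value is given as log2 signal. The tumors carry the label Chd7-het and the numbers 1, 2, 4 and 5, all from mice of a mixed CD1xC57BL/6 background, with 1 array per tumor. Chd7 is a chromatin remodeller. The nature of the Chd7 allele, any other allele or agent that gave rise to the tumors, and the age and sex of the mice are not stated in the sources used here. All 4 tumors form a single group, with neither normal cerebellum nor another genotype beside them, so the chaperones could only be compared between tumors.

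Chaperones bind unfolded proteins and help them to fold, to assemble or to be degraded. Small heat shock proteins hold unfolded proteins without using ATP, while HSP70, with its J-protein and nucleotide exchange partners, and HSP90 work through cycles of ATP hydrolysis in the cytosol. Hspd1 and Hspe1 form the folding chamber of the mitochondrial matrix, and Hspa5 (BiP) is the HSP70 of the endoplasmic reticulum. When proteins unfold in the cytosol, the factor HSF1 binds heat shock elements, which are inverted repeats of the bases GAA, and raises a set of inducible genes of which Hspa1b is the best known. Unfolding in the endoplasmic reticulum acts instead through the unfolded protein response and the ER stress element.

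The promoters are shown because the members fall into genes known as targets of these separate responses. RefSeq windows of the GRCm38.p6 build, which run over 250 bases before and 50 bases from a start site, were at hand for 7 of the 10 members. They were searched on both strands for a triple of GAA, TTC and GAA set 2 bases apart, for the pairs GAANNTTC and TTCNNGAA, either of which can be part of the triple, and for the ER stress element, CCAAT and CCACG set 9 bases apart. A match describes these letters and does not show that a factor binds there. Of all 32851 windows in the table, 0.603% held the triple, 7.86% held GAANNTTC, 8.52% held TTCNNGAA and 0.119% held the ER stress element. In the stretches below, capitals mark the matches and positions count back from the start site.
Hspe1, chr1:55087998-55088147, plus strand, -150 to -1: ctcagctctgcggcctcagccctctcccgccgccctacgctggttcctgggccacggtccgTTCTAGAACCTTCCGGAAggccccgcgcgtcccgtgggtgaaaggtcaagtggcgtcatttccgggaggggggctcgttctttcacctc
Hspa1b, chr17:34959239-34959388, minus strand, -150 to -1: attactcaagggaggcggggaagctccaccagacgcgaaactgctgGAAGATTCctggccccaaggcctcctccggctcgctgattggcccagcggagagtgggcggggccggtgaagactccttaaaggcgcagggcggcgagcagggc
Hspb1, chr5:135887769-135887918, plus strand, -150 to -1: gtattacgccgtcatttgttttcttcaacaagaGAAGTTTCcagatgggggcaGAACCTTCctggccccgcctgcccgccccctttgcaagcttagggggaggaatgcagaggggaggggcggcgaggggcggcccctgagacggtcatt
Hsph1, chr5:149636337-149636396, minus strand, -60 to -1: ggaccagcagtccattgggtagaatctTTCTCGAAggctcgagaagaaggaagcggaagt
Hspa5, chr2:34771940-34772089, plus strand, -150 to -1: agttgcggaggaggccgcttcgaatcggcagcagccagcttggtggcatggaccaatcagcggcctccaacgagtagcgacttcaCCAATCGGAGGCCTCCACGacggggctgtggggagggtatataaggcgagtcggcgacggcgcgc

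Hspe1 and Hspd1 are read in opposite directions from a shared stretch, with 216 bases between the Hspe1 start site and an Hspd1 start site. The triple repeats at chr1:55088059-55088076 lie in the windows of both genes, though a further Hspd1 window, for a start site at 55088243, held none of these motifs. Hsph1 also held a triple, TTCTGGAAAGTTC, just past its start site at chr5:149636288-149636300. Hspb1 held 2 separate GAANNTTC pairs and Hspa1b held 1. The Hspa1b window was identical to that of its neighbour Hspa1a at 296 of 300 bases. Hspa5 held the ER stress element, and for Dnajb1 none of these letters were found in the windows searched.

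Between tumors, the members split by the tumors in which they read highest. Cryab, Hspb1, Hsph1 and Hspa1b read highest in tumors 1 and 5, whereas Hspa8, Hsp90aa1, Dnajb1, Hspd1, Hspe1 and Hspa5 read highest in tumors 5 and 4, by the probe set with the highest mean of each gene. The split depended on the scaling and on the probe sets read. After the arrays were given the same distribution of signals (quantile normalization), tumors 1 and 5 were highest for Hsp90aa1 and Hspa5 too. By another probe set of each gene, tumors 1 and 5 were highest for Hspe1 and, by a small margin, for Hspa5. By other probe sets of Hspa8, the highest were tumors 1 and 2 or tumors 2 and 5. Over all 10 members tumor 5 was the highest in 8 and tumor 2 the lowest in 7, beside 30.9% and 29.2% of all genes tested. These are descriptions of 4 arrays. None of the 9 tested members passed the test given further on, which also asks for a 2-fold difference. The widest of their differences was 0.70 on the log2 scale (Hspb1 in tumor 5), less than 2-fold. A smaller difference could therefore not pass, whatever its spread. Hspa1b was not tested. In tumor tissue as a whole, fewer cells that express a gene and less of its RNA per cell cannot be told apart.

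**Figure D1:**
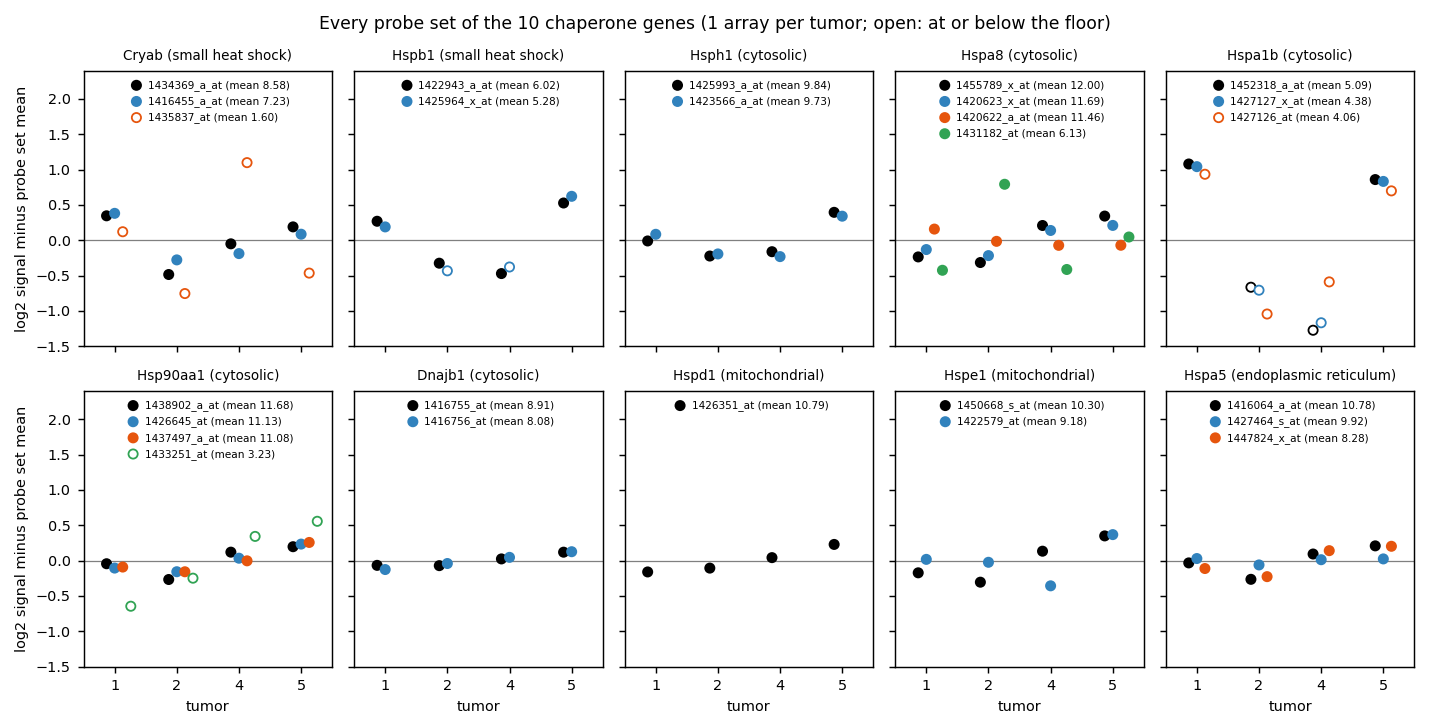
Each panel shows a chaperone gene, with the log2 signal of each of its probe sets minus that probe set's mean on the y axis and the 4 tumors on the x axis; black marks the probe set with the highest mean and open circles a signal at or below the floor of 5.12. The 2 brighter Hspa1b probe sets read above the floor in tumors 1 and 5 only, and Dnajb1 varied little. Of the 4 probe sets of Hspa8, the 2 brightest share an order of tumors that the others do not.

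The small heat shock members varied more between tumors than most genes, as did some members of the other classes. Cryab, αB-crystallin, a chaperone of the eye lens, muscle and glia, read 8.92, 8.09, 8.53 and 8.77 in tumors 1, 2, 4 and 5 (mean 8.58 ± 0.36, SD, n = 4) with probe set 1434369_a_at. Tumor 2 was the lowest and tumor 1 the highest, 1.78-fold apart. A further probe set, 1416455_a_at, ordered the tumors the same way, at 7.61, 6.95, 7.04 and 7.32, and the remaining one, 1435837_at, lay below the floor of 5.12 in every tumor. The floor is the level under which signals were treated as not measured.

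Hspb1, HSP27, a small heat shock protein that also acts on actin filaments, read 6.29, 5.69, 5.55 and 6.54 in tumors 1, 2, 4 and 5 (mean 6.02 ± 0.48, SD, n = 4) with 1422943_a_at. Tumors 1 and 5 lay above tumors 2 and 4, and the highest and lowest were 2.00-fold apart. Its other probe set, 1425964_x_at, read 5.47, 4.85, 4.90 and 5.90, so the same tumors lay above and below the floor. The SD of Hspb1 over the tumors exceeded that of 95.7% of the 8498 genes tested, and that of Cryab exceeded 90.4%. The median gene had an SD of 0.17. For Hspa8, Hspe1 and Hsph1 these shares were 87.2%, 83.7% and 80.7%, and for Hsp90aa1, Hspa5 and Hspd1 between 50.9% and 62.3%. Hspb11, a small heat shock gene outside the members, had an SD of 0.15.

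Hspa1b, the inducible HSP70, showed the widest range of the members, at low signals. Its brightest probe set, 1452318_a_at, read 6.17, 4.43, 3.82 and 5.95 in tumors 1, 2, 4 and 5. Tumors 1 and 5 lay above the floor and tumors 2 and 4 below it, which makes tumor 1 at least 2.07-fold and tumor 5 at least 1.78-fold higher than either of the low tumors. Probe set 1427127_x_at read 5.43, 3.68, 3.22 and 5.22, again with tumors 1 and 5 above the floor and the others below it. Probe set 1427126_at lay below the floor in all 4 tumors, which gives no order. The deposited table names a separate probe set for Hspa1a, the near-identical neighbouring gene, which lay below the floor throughout, at 3.97, 2.07, 3.70 and 4.99. Probe sets of these genes may read each other's transcripts, and the values are therefore uncertain as to which of them was measured. Hspa1b did not reach the mean signal of 5.87 needed to enter the test, so 9 of the 10 members were tested.

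Hsph1, HSP110, which exchanges the nucleotide on HSP70, read 9.83, 9.62, 9.68 and 10.24 in tumors 1, 2, 4 and 5 (mean 9.84 ± 0.28, SD, n = 4) with 1425993_a_at. Tumor 5 stood above the other 3, which lay within 0.21 of each other on the log2 scale. Probe set 1423566_a_at gave 9.82, 9.54, 9.50 and 10.07, again with tumor 5 highest and tumor 1 next.

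The other cytosolic members followed another order. Hsp90aa1, the stress-inducible form of HSP90, read 11.63, 11.41, 11.80 and 11.88 (mean 11.68 ± 0.21, SD, n = 4) in tumors 1, 2, 4 and 5 with 1438902_a_at. The order from tumor 5 over 4 and 1 to tumor 2 was the same in its other 2 probe sets above the floor, 1426645_at and 1437497_a_at. Dnajb1, HSP40, the J-protein that hands substrates to HSP70, was the steadiest member, at 8.84, 8.84, 8.93 and 9.03 (mean 8.91 ± 0.09, SD, n = 4). Its SD exceeded that of only 14.3% of the genes tested.

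For Hspa8, the constitutive HSP70 of the cytosol, the probe sets disagreed. The brightest, 1455789_x_at, read 11.77, 11.69, 12.21 and 12.34 in tumors 1, 2, 4 and 5, with tumors 4 and 5 on top. Its range was 1.58-fold. Probe set 1420623_x_at had the same order, at 11.55, 11.47, 11.82 and 11.90. In contrast, 1420622_a_at read 11.62, 11.44, 11.39 and 11.39, highest in tumor 1 and with a range of 1.17-fold. The dim 1431182_at read 5.70, 6.92, 5.71 and 6.17, highest in tumor 2. An _x_at suffix marks probes that can bind transcripts of other genes, and wherever Hspa8 is counted by its order of tumors, the order is that of 1455789_x_at and not shared by 1420622_a_at.

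The mitochondrial pair read highest in tumor 5. Hspd1, HSP60, which forms the chamber, read 10.63, 10.68, 10.83 and 11.02 in tumors 1, 2, 4 and 5 (mean 10.79 ± 0.17, SD, n = 4) with its only probe set. Hspe1, HSP10, the lid of that chamber, read 10.13, 9.99, 10.43 and 10.65 (mean 10.30 ± 0.30, SD, n = 4) with 1450668_s_at. Its other probe set, 1422579_at, read 9.20, 9.16, 8.83 and 9.55, with tumor 5 still highest and tumor 4 now lowest. The genes that share the promoter stretch above thus have tumor 5 as the highest in all 3 probe sets, while the place of tumor 4 depended on the probe set.

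Hspa5, the HSP70 of the endoplasmic reticulum, read 10.74, 10.51, 10.87 and 10.98 in tumors 1, 2, 4 and 5 (mean 10.78 ± 0.20, SD, n = 4) with 1416064_a_at. Tumor 2 was the lowest in all 3 of its probe sets. The highest was tumor 5 in 2 of them. In 1427464_s_at tumors 1 and 5 were on top, though all tumors lay within 0.09 of each other.

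The classes were then compared by the difference of each tumor from the mean of the other 3. In tumor 1 the 2 small heat shock genes had a median log2 difference of 0.41, against -0.08 for the 4 tested cytosolic members and -0.22 for the 2 mitochondrial members. In tumor 4 the median was -0.35 for the small heat shock genes, 0.09 for the cytosolic and 0.12 for the mitochondrial members. In tumors 2 and 5 the classes shared a direction. Tumor 2 had medians of -0.54, -0.33 and -0.28 and tumor 5 medians of 0.48, 0.36 and 0.38, in the same order of classes. Of the small heat shock genes, Hspb1 reached the mean signal needed for the test only with tumor 5 included. Cryab alone had a difference of 0.25 in tumor 5. With quantile normalization the cytosolic medians were -0.09 in tumor 2 and 0.12 in tumor 5, and without _x_at and _s_at probe sets the mitochondrial median in tumor 2 was -0.09. Over all 8498 genes these medians lay between -0.04 (tumor 1) and 0.04 (tumor 5). Among the tested members, the small heat shock genes thus differed from the cytosolic and mitochondrial classes in the direction of tumor 1. This contrast rests on 2 genes and was not tested. Hspa5, of the endoplasmic reticulum, lay at -0.04 in tumor 1 and above 0 there with quantile normalization. The cytosolic Hspa1b, which the filter left out, was also higher in tumor 1, by 0.77 with low signals held at the floor. The cytosolic median in tumor 1 was -0.0075 with quantile normalization, where Hsph1 (0.053) and Hsp90aa1 (0.155) were above 0. Without _x_at and _s_at probe sets Hspa8 was above 0 there (0.211). The small heat shock median in tumor 1 was between 0.26 (without tumor 2) and 0.61 (without tumor 5) when a tumor was left out. For tumor 4 the direction of the other classes depended on the processing. The cytosolic median there was -0.02 with quantile normalization, -0.0004 with the mean over probe sets and -0.03 without _x_at and _s_at probe sets, and the mitochondrial median was -0.05 with the mean over probe sets. The small heat shock median in tumor 4 came mostly from Hspb1 (-0.63) rather than Cryab (-0.07), and was 0.02 without tumor 5, where Cryab alone passed the filter. Without _x_at and _s_at probe sets, the mitochondrial median in tumor 4 was -0.21. Leaving out tumor 5 made the mitochondrial median in tumor 2 -0.17.

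All 9 tested members read higher in tumor 5 and lower in tumor 2 than the mean of the other tumors, as did 56.9% and 52.8% of all genes. None of them passed the limma test of a tumor against the other 3, in which a gene passed if it differed by at least 2-fold and its p, adjusted across the 8498 genes by Benjamini and Hochberg, was below 0.05. The test assumes that the lone tumor varies like the other 3. The share of all genes that passed was 1.29% for tumor 1 (110 genes) and 0.0% for each of tumors 2, 4 and 5. Unadjusted p-values under 0.05 were found by limma in 951, 496, 47 and 306 genes of tumors 1, 2, 4 and 5. Among the members these were Cryab in tumor 2 (difference -0.65, SE 0.19, limma adjusted p = 0.795) and Hsph1 in tumor 5 (0.53, SE 0.18, limma adjusted p = 0.957). Hspb1 in tumor 5 had the widest difference of the tested members, 0.70 (SE 0.33). It reached the mean signal needed for the test only with tumor 5 included. Its difference in tumor 5 is therefore not separate from its selection, nor is its part in the counts of members for that tumor. The lowest adjusted p among the 36 differences of members was that of Cryab in tumor 1, 0.557 (0.46, SE 0.24, limma). With tumor 1 left out, the limma adjusted p in tumor 2 was below 0.05 for Hspa8 (-0.59, adjusted p = 0.0133), Hsp90aa1 (-0.43, adjusted p = 0.0276), Hspe1 (-0.55, adjusted p = 0.0357) and Hspa5 (-0.42, adjusted p = 0.0488), each a change of less than 2-fold. In that fit 3.4% of all genes were below 0.05. These 4 members had mean signals above 10. Genes that bright had a median deviation of -0.11 in tumor 2 and 0.11 and 0.09 in tumors 4 and 5. With all 4 tumors, quantile normalization took the tumor 2 difference from -0.42 to -0.05 for Hspa8 and -0.36 to -0.09 for Hsp90aa1. For Hspe1 it went from -0.41 to -0.33 and for Hspa5 from -0.35 to -0.26. Tumor 2 was lowest in every Hsp90aa1 and Hspa5 probe set above the floor, not in Hspa8 1420622_a_at or Hspe1 1422579_at. With tumor 2 left out, Hspa8 in tumor 1 had the lowest value of any member, a limma adjusted p of 0.0127 (-0.51), where 7.12% of all genes were below 0.05. With all 4 tumors, the Hspa8 difference in tumor 1 was -0.31, and -0.08 with quantile normalization. It was 0.21 without _x_at and _s_at probe sets.

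**Figure D2:**
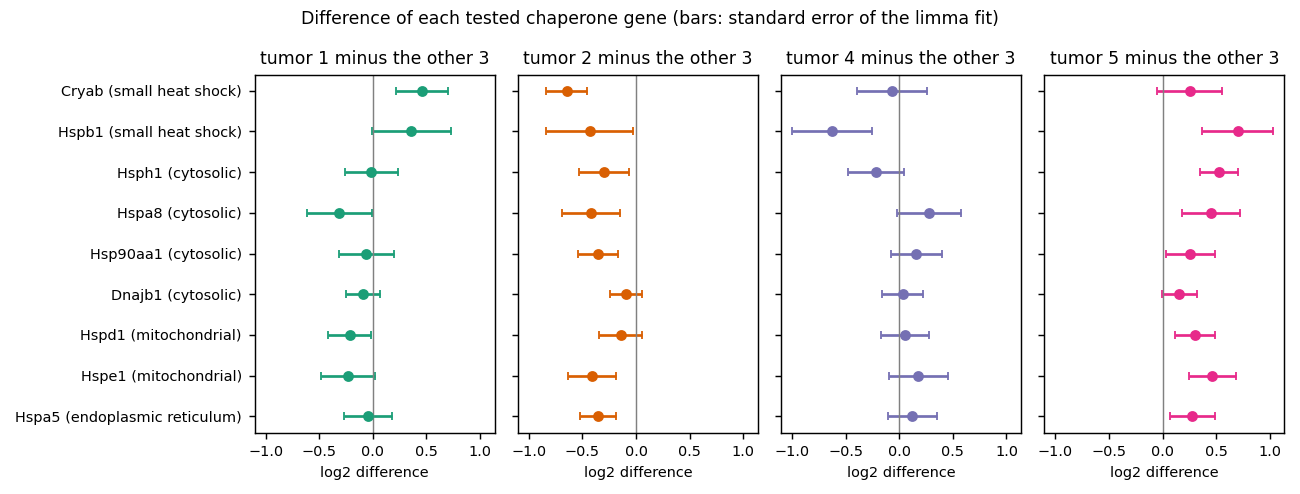
The x axes give the log2 signal of a tumor minus the mean of the other 3 for the 9 tested members, with a panel per tumor and bars for the standard error of the limma fit. All points lie below 0 in tumor 2 and above 0 in tumor 5, and the small heat shock genes Cryab and Hspb1 lie apart from the other members in tumor 1, where they are above 0.

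Between pairs of tumors, the members stood apart most in tumors 2 and 5. There 5 of 9 members were 1.5-fold or more apart (Cryab, Hspb1, Hsph1, Hspa8 and Hspe1), each higher in tumor 5, beside 8.96% of all genes. After quantile normalization the count was 2 of 9, Cryab and Hspb1, beside 8.57% of all genes. For tumors 1 and 2 this held for Cryab and Hspb1, beside 9.8% of all genes. Hspb1 alone was that far apart between tumors 1 and 4 (8.44% of all genes) and tumors 4 and 5 (2.95%). No member reached 1.5-fold between tumors 1 and 5 (10.6%) or tumors 2 and 4 (4.52%). Tumor 5 was the highest of the 4 in 8 of the 9 tested members, beside 30.9% of all genes, and tumor 2 the lowest in 7 of 9, beside 29.2%. Without tumor 1, the tumor with the most genes passing limma, tumor 5 was the highest in 9 of 9 members (39.1% of all genes) and tumor 2 the lowest in 8 of 9 (43.5%).

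Bright genes as a whole read higher on the arrays of tumors 4 and 5, and many members are bright. Over the 712 genes with a mean signal of 10 or more, the median deviation from the gene's own mean was -0.10, -0.11, 0.11 and 0.09 in tumors 1, 2, 4 and 5, whereas over the 2374 genes with the lowest signals it lay between -0.04 and 0.01. The 3' control probe set of actin also read highest in tumors 4 and 5, at 11.76, 11.67, 12.17 and 12.24. Tumors 4 and 5 were the 2 highest in 6 of the 9 tested members, beside 65.4% of the bright genes and 28.2% of all genes. Tumors 1 and 5 were the 2 highest in 3 of 9, beside 5.9% of the bright genes and 15.1% of all genes. Those 3, Cryab, Hspb1 and Hsph1, had mean signals below 10 (8.58, 6.02 and 9.84), so the share of the bright genes does not match them. Hspa8, Hsp90aa1, Hspd1, Hspe1 and Hspa5 had means above 10 and tumors 4 and 5 on top. Dnajb1, with a mean of 8.91, had tumors 4 and 5 on top too.

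Quantile normalization, which gives the 4 arrays the same distribution of signals, affected the members unequally. The range over the tumors fell from 0.66 to 0.13 for Hspa8 and from 0.46 to 0.18 for Hsp90aa1, and tumor 1 became the highest for Hsp90aa1. It went from 0.39 to 0.23 for Hspd1 and from 0.47 to 0.33 for Hspa5. For Hspb1 (1.00 to 0.96), Cryab (0.83 to 0.85), Hsph1 (0.62 to 0.56), and Hspe1 (0.65 to 0.54) most of the range was kept. Tumors 1 and 5 were still the highest for Cryab, Hspb1, Hsph1 and Hspa1b. After this step tumor 5 was the highest in 7 of 9 tested members, beside 30.6% of all genes, and tumor 2 the lowest in 6 of 9, beside 29.6%. Tumors 1 and 5 were then the 2 highest in 5 of 9 (14.1% of all genes), with Hsp90aa1 and Hspa5 added, and tumors 4 and 5 in 3 of 9 (28.8%). Without _x_at and _s_at probe sets and with the deposited scaling, tumor 5 was the highest in 7 of 9 (31.5%) and tumor 2 the lowest in 5 of 9 (28.8%). Tumors 1 and 5 were then the 2 highest in 4 of 9 (15.4%) and tumors 4 and 5 in 4 of 9 (28.1%).

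**Figure D3:**
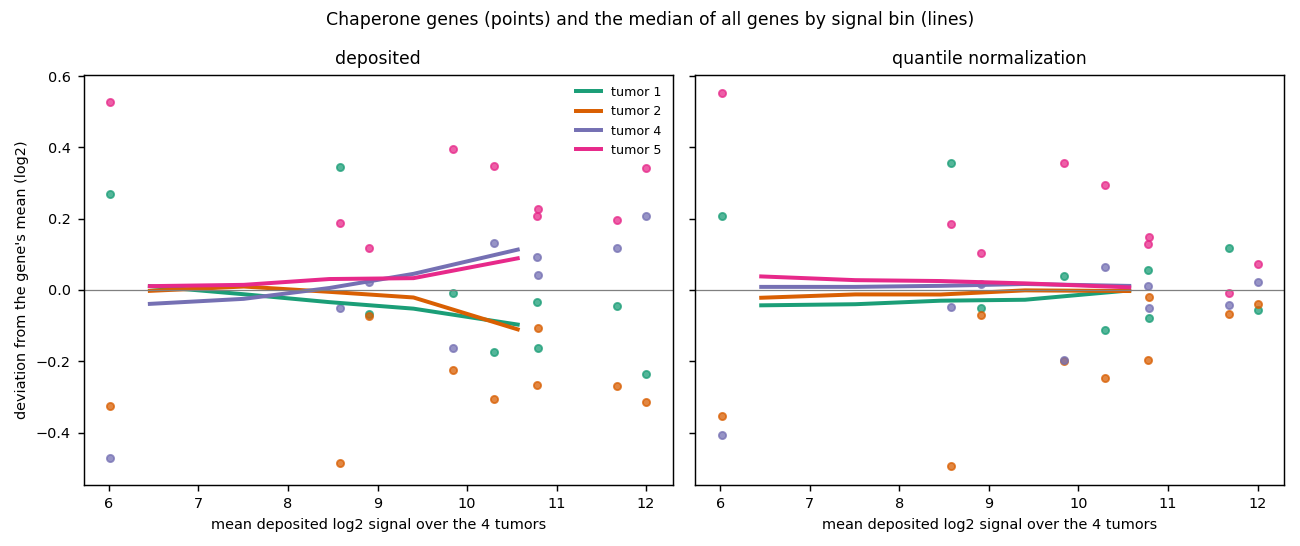
The y axis gives the deviation of the log2 signal from the gene's mean over the tumors and the x axis its mean signal, with points for the 9 tested members and lines for the median of all genes by signal bin, coloured by tumor. In the deposited values the lines of tumors 4 and 5 rise above those of tumors 1 and 2 at high signals, to 0.11 and 0.09 against -0.10 and -0.11, and after quantile normalization they do not.

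Of 88 other genes of protein folding grouped by role, 70 entered the test and none passed limma in either direction in any tumor (1.29% of all genes in tumor 1 and 0.0% in the others). The widest of their differences was 0.76 on the log2 scale (Sdf2l1 in tumor 5), less than 2-fold, so none could pass whatever its spread. Tumor 5 was the highest for 43 of the 70 (30.9% of all genes) and tumor 2 the lowest for 39 of them (29.2%). After quantile normalization these counts were 39 and 36. The tested cochaperones of HSP90, among which there is no HSP90 gene itself, read higher in tumor 5 in 8 of 8 genes, beside 56.9% of all genes. Their median difference was 0.37, beside 0.04 for all genes. A ninth cochaperone, Unc45a, fell short of the mean signal needed for the test and went the other way, at 6.14, 5.88, 5.62 and 5.40 in tumors 1, 2, 4 and 5. Fkbp5, an HSP90-binding immunophilin, read 7.81, 8.09, 8.19 and 8.42 in tumors 1, 2, 4 and 5, and Aarsd1, which encodes an HSP90 cochaperone, 7.52, 7.68, 7.95 and 8.11. In both, tumor 5 was highest and tumor 1 lowest.

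Of the genes of the endoplasmic reticulum and the unfolded protein response, 18 of 19 were higher in tumor 5 (median 0.26), beside 56.9% of all genes. In tumor 2, 16 of 19 were lower (median -0.28), beside 52.8% of all genes. The medians were 0.26 and -0.28 after quantile normalization too. Sdf2l1, a partner of BiP, read 7.59, 7.32, 7.70 and 8.30 in tumors 1, 2, 4 and 5 (limma adjusted p = 0.957 in tumor 5). Serpinh1, HSP47, the collagen chaperone, read 9.21, 8.51, 8.24 and 8.93. It thus had tumors 1 and 5 on top, as did Hspa4l, a relative of HSP110, at 7.84, 7.13, 7.02 and 7.60. Hspa2, an HSP70 known from the testis, ran the other way, with 8.48 and 8.58 in tumors 1 and 2 and 7.86 and 7.61 in tumors 4 and 5.

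The chaperonin TRiC and its partner prefoldin, which fold actin and tubulin, were higher in 12 of 13 genes in tumor 4 (median 0.16), beside 50.8% of all genes. In tumor 5, too, 12 of 13 were higher (median 0.16), beside 56.9% of all genes. Cct7 and Cct2, subunits of the TRiC ring, read 10.64, 10.51, 11.01 and 11.05, and 11.28, 11.11, 11.50 and 11.63. After quantile normalization the medians of this list were 0.04 and 0.09. Of the other mitochondrial chaperones and proteases, 10 of 11 were higher in tumor 5 (median 0.14), beside 56.9% of all genes. Among them, Hscb, a J-protein of iron-sulfur cluster assembly, read 6.00, 6.09, 6.52 and 6.51, and Clpb, a disaggregase, 6.82, 6.99, 7.15 and 7.25.

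Of the other cytosolic HSP70, HSP110 and J-protein genes, 9 of 14 were higher in tumor 5, near the 56.9% of all genes, with a median of 0.06 that turned to -0.01 after quantile normalization. The 4 tested genes around the HSF factors had medians between -0.09 (tumor 2) and 0.08 (tumor 5). Among them, Bag3, an HSP70 cochaperone and known HSF1 target, read 6.04, 6.18, 5.47 and 5.96 in tumors 1, 2, 4 and 5, and Hsbp1, an HSF1-binding protein, 10.53, 10.32, 10.91 and 10.68. Bag3 was low in tumor 4 and not in tumor 2, so its order differed from that of Hspa1b and Hspb1. The small heat shock list held 1 tested gene, Hspb11, known as an intraflagellar transport protein, at 8.15, 8.08, 8.27 and 8.43.

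**Figure D4:**
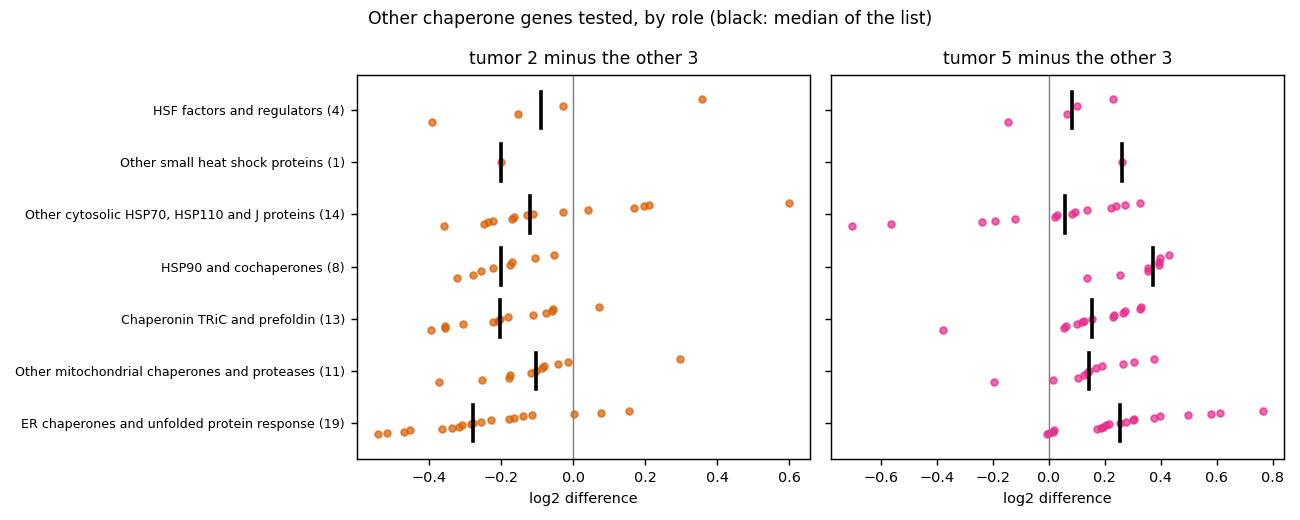
The x axes give the log2 signal of tumor 2 (left) and tumor 5 (right) minus the mean of the other 3, each point being a tested gene of a list on the y axis, with its number of genes, and black bars the medians. HSP90 cochaperones lie above 0 in tumor 5 with a median of 0.37, and genes of the endoplasmic reticulum lie mostly below 0 in tumor 2 with a median of -0.28.

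The cell types of the tissue also varied. The markers of the granule cell lineage, from whose progenitors many cerebellar tumors arise, lay above the floor in every tumor in 10 of 10 genes. Their summed linear signal was between 14182 and 14880, a sum in which single genes went opposite ways. Against the mean of the other tumors, 4 of them were higher in tumor 1 and 6 lower. Neurod1 (0.63) and Pax6 (1.26) were among the higher and Atoh1 (-0.83) among the lower. The 7 measured markers of Purkinje and GABAergic neurons summed to 3402, 225, 443 and 208 in tumors 1, 2, 4 and 5, and the 10 of oligodendrocytes and myelin to 6651, 2458, 3406 and 2608. The 9 markers of mature neurons summed to 6964, 1853, 2827 and 2587, with Snap25, Syt1 and Chn2 passing limma as higher in tumor 1. The sums of all 3 lists were highest in tumor 1, where Cryab was highest too. Olig1, Olig2 and Sox10 of the oligodendrocyte list went the other way. They were lowest in tumor 1, with differences of -0.37, -0.66 and -0.80 from the mean of the other tumors. In tumor 5, 5 of the 7 Purkinje and GABAergic markers, 4 of the 10 of oligodendrocytes and 3 of the 9 of mature neurons lay below the floor. In tumor 2 these counts were 5, 3 and 5, so tumors 2 and 5 were alike in this. They were 2, 3 and 2 in tumor 4 and 1, 0 and 0 in tumor 1. The 7 endothelial and mural markers summed to 897, 535, 428 and 558. The 9 of astrocytes and Bergmann glia summed to 5573, 4294, 4397 and 4153, and both sums were also highest in tumor 1. Of those 9, 8 were higher in tumor 1 than the mean of the other tumors, and Gfap was lower (-0.98). The 9 microglia and macrophage markers summed to 3330, 4088, 5921 and 4498, with tumor 4 highest. The part of these cell types in the chaperone values was not tested. For RNA quality, the Gapdh control signal at the 3' end was between 0.686 and 0.757 times that at the 5' end, with tumor 5 lowest, and for actin between 1.11 and 1.17 times.

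By the distance between patterns, the genes most like the mean of the 9 tested members over the 4 tumors were Tada3, Cdk2ap2, Apip, Srxn1 and Acaa2. The members' mean deviated by -0.01, -0.26, -0.01 and 0.28 in tumors 1, 2, 4 and 5. Tada3, a subunit of histone acetyltransferase complexes, deviated by -0.01, -0.25, -0.01 and 0.27, a root mean square distance of 0.0070 on the log2 scale, and the distance of Acaa2, an enzyme of fatty acid oxidation, was 0.026. With 4 tumors and 8498 genes, such likeness is a description only.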

How the data were processed

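The authors deposited log2 signals of 4 arrays; the submitters' processing notes name MAS5, which summarizes and scales each array on its own. No version or scaling target is given in the sources used here. The table used here held 29304 probe sets and no detection calls, and the number of arrays limits precision. Genes were named through the platform annotation (24679 probe sets with a single symbol, 647 with several, 3917 with none, 61 controls). Signals were raised to a floor, the median over arrays of the 40th percentile (5.12), and probe sets with a mean at or above the median mean (5.87) were kept. The brightest stood for its gene. The fit of a tumor against the remaining 3 used limma (version 3.58.1, intensity trend; R 4.3.3) and was tested on simulated data. Nothing used here says whether tumors share a litter or batch, so p-values measure only the spread between these samples.

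The members and gene lists were chosen with earlier results of these data known. Named genes were all members, the 2 tested genes with the widest range in each list of other chaperones and the 5 nearest in pattern; Hspa1a, a near-identical copy, and Unc45a were added after their values were seen. Marker lists were given as counts and sums. Alternatives were another floor, filter, probe set choice, scaling or prior, and leaving out a tumor. Counts of tumor order, of 1.5-fold gaps and of adjusted p alone under other settings were added after seeing the data. Promoter windows came from RefSeq, GRCm38.p6.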

Additional observations from a re-analysis of the deposited data

How the results depend on the processing

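No member was called under any of the alternatives run. Adjusted p-values of the 36 member differences, from limma, lay between 0.557 and 1.00 as reported and between 0.0127 and 1.00 over the alternatives, where differences with an adjusted p below 0.05 were all under 2-fold. The count of all genes passing in tumor 1 (110) was 57 with the floor at the 50th percentile and 29 with the mean filter at the 75th, and between 177 and 208 when another tumor was left out. In tumor 2 the count of 0 became 1 with no filter on the mean, 1 with the filter at the 75th percentile and 1 with median centring. With no filter it was 5 in tumor 4 and 6 in tumor 5. Leaving out a tumor gave between 0 and 29 in tumor 2, between 1 and 7 in tumor 4 and between 1 and 47 in tumor 5, with the highest counts without tumor 1.

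Class medians under alternatives moved by less than the SD over tumors in 175 values and by more in 1, the mitochondrial median in tumor 4 (-0.21 without _x_at and _s_at probe sets). Member differences turned sign in 23 of 425 values. With quantile normalization these were Hsph1 (0.053), Hsp90aa1 (0.155) and Hspa5 (0.074) in tumor 1, Hsp90aa1 (-0.056) and Hspd1 (-0.068) in tumor 4 and Hsp90aa1 (-0.010) in tumor 5. Without _x_at and _s_at probe sets they were Hspa8 in tumors 1 (0.211), 4 (-0.096) and 5 (-0.094) and Hspe1 in tumors 1 (0.022) and 4 (-0.477), another probe set being read. With the mean over probe sets they were Hsph1 in tumor 1 (0.050), Hspa8 in tumors 2 (0.082) and 4 (-0.046) and Hspe1 in tumor 4 (-0.151), and with median centring Cryab in tumor 4 (0.0027). Leaving out a tumor gave differences from -0.318 to 0.097 for Cryab, -0.0020 to 0.093 for Dnajb1 and -0.019 to 0.175 for Hspd1 in tumor 4, and from -0.126 to 0.183 for Hsph1, -0.202 to 0.030 for Hsp90aa1 and -0.184 to 0.053 for Hspa5 in tumor 1. These turned sign without tumor 5 for the genes in tumor 1, without tumor 1 or 5 for Cryab, without tumor 2 for Dnajb1 and without tumor 1 for Hspd1. Where no reason is given, the cause was not tested. No paired analysis was possible because there is a single group.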

Other observations

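A probe set each of Cryab (1435837_at), Hspa1b (1427126_at) and Hsp90aa1 (1433251_at) lay below the floor in all 4 tumors. With no filter on the mean, Hspa1b entered the test with differences of 0.77 in tumor 1 (SE 0.46, limma adjusted p = 0.777) and 0.48 in tumor 5 (SE 0.59, limma adjusted p = 1.00), in which tumors 2 and 4 are held at the floor.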
